A study of Homo sapiens with 12 samples.

Results

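The collagen chains were described here across 12 microarrays of Hs578T and BT-20, which are cell lines from human breast cancers. A collagen chain was any gene whose symbol reads COL, a number, A and a number. For each gene the probe set (a group of array probes for a transcript) that was annotated to this gene alone and had the highest mean over the 12 arrays was used. This gave 43 chains of 19775 genes in all, and 1 further chain of the 44 symbols that fit the rule in the RefSeq annotation is not analysed here. By collagen type, 11 chains were fibrillar, 6 belonged to basement membrane, 3 to network-forming, 5 to beaded-filament, 1 to anchoring-fibril, 10 to fibril-associated, 2 to multiplexin and 3 to transmembrane collagens, and 2 were of other types.

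Cells of each line were treated for 24 h with 200 nM of an oligonucleotide carried by the liposomal reagent DOTAP. Hs578T cells received a double-stranded DNA oligonucleotide with methylated CpG cytosines (M, 2 arrays), the same DNA unmethylated (U, 2 arrays), the CpG oligodeoxynucleotide ODN2006 (1 array) or its GpC control (1 array). BT-20 cells received M (2 arrays), U (2 arrays), ODN2006 (1 array) or its control (1 array). The arrays of M and U were labelled set 1 and set 2, and their array codes place set 1 in one array batch and set 2 in another, together with the arrays of ODN2006 and its control (ODN arrays). All groups share the reagent and an oligonucleotide, and no array of untreated cells was used here. Each line is a single tumour-derived line, so a difference between them is a difference between these lines. The sequences of the ODNs are shown because they differ in the order of their CG letters, which are in capitals for ODN2006, as are the GC letters of the control.
ODN2006: tCGtCGttttgtCGttttgtCGtt
ODN2006 control: tGCtGCttttgtGCttttgtGCtt

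Collagen molecules are helices of alpha chains, alike or different, and each chain is coded by its own gene. Fibrillar collagens form the cable-like fibrils of connective tissue, type IV collagen forms the sheets of basement membranes, and other types tie fibrils to each other, to basement membranes or to cells. In the breast, epithelium rests on a basement membrane and fibroblasts of the stroma make most of the fibrillar collagen. Chains are hydroxylated, folded and exported, trimmed outside the cell and crosslinked before the matrix is mature.

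Values are log2 GCRMA intensities (a background-corrected array summary), and 5 was taken as the level from which a probe set was called present. The median of an array was 3.01 to 3.09, and the share of its probe sets at 5 or above was 33.9% to 35.0%. Within-line and between-line similarity differed: arrays correlated at 0.985 to 0.998 within a line and at 0.887 to 0.906 between lines, and 0 pairs were identical. Levels of different chains come from different probes and were not compared with each other.

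More collagen chains were present in Hs578T than in BT-20. In Hs578T 19 of 43 chains (44.2%) were at 5 or above on all 6 arrays, against 9 of 43 (20.9%) in BT-20. Fewer cells that carry a transcript and less of it per cell cannot be told apart in such samples. Over all genes the shares were alike, at 45.2% in Hs578T and 45.3% in BT-20. Only COL1A1, COL5A1, COL4A1, COL4A2, COL12A1 and COL18A1 were at 5 or above on every array of both lines. The 19 chains under 5 on all 12 arrays (44.2%, against 45.4% of all genes) lay between 2.02 and 4.70, and COL2A1 and COL11A1 of cartilage fibrils and COL10A1 of growth-plate cartilage were among them.

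In the M and U arrays 23 chains passed the filter (5 or above in at least 2 arrays), and limma with Benjamini-Hochberg adjustment over 10410 genes called 19 of them higher in Hs578T and 3 lower. The background was 34.4% of genes called higher and 40.2% called lower. The median difference, Hs578T minus BT-20, was 4.38 over these chains and -0.09 over all genes, on the values as deposited. In the ODN arrays, which that comparison does not use, 19 of 22 chains were called higher and 3 lower, against 29.9% and 38.3% of 10140 genes. COL4A5, COL9A3 and COL15A1 were the lower chains in both comparisons. With 1 array per ODN group, the spread for the ODN arrays was taken from the M and U groups, so this was no independent repeat. A chain present in 1 line only could pass the filter through that line, so these counts do not stand for all 43. The direction of such a chain was largely fixed by the filter. Of the higher chains, COL1A2, COL3A1, COL5A2, COL5A3, COL27A1, COL8A1, COL6A2, COL6A3, COL7A1 and COL14A1 were under 5 on all BT-20 arrays. Of the lower chains, COL9A3 and COL15A1 were under 5 on all Hs578T arrays. Centring each array on 11 housekeeping genes moved the median of all genes by -0.46, so that 2377 genes were called higher and 5951 lower, against 3580 and 4189 on the deposited values. The called chains kept their direction.

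**Figure D1:**
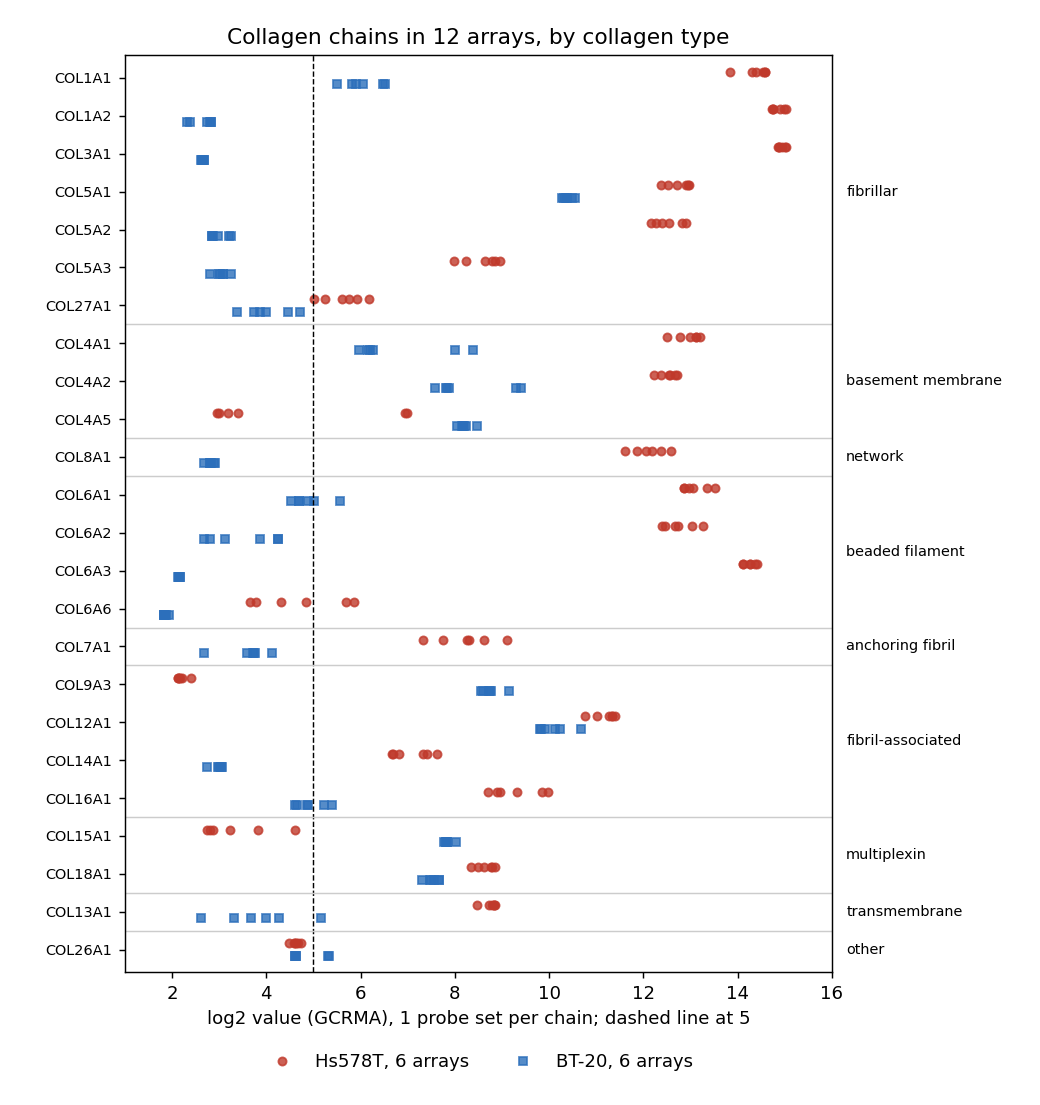
Log2 value of each collagen chain with 5 or above in at least 2 of 12 arrays, 1 point per array, Hs578T (red circles) above BT-20 (blue squares) in each row, rows grouped by collagen type, dashed line at 5. Most chains lie to the right in Hs578T, while COL4A5, COL9A3 and COL15A1 lie to the right in BT-20.

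All 7 fibrillar chains tested were higher in Hs578T in the M and U arrays (background 34.4% of genes higher). The median difference was 8.04 on the values as deposited. COL1A2, COL3A1, COL5A2, COL5A3 and COL27A1 were under 5 on all BT-20 arrays and passed the filter through Hs578T alone. Their direction was thus largely fixed by the filter. The other 4 of the 11 chains were under 5 on all arrays. COL1A2, a chain of type I collagen of skin, bone and tendon, was at 14.74, 14.83 and 15.02 (lowest, median, highest) in Hs578T and at 2.33, 2.77 and 2.83 in BT-20. COL3A1, the chain of type III collagen of soft tissues, was at 14.86, 14.91 and 15.03 in Hs578T and at 2.62, 2.65 and 2.68 in BT-20. Both were at the high end of the scale on each Hs578T array and under 5 on each BT-20 array. BT-20 values under 5 only bound a difference, so with such values raised to 5 Hs578T was higher by at least 9.79 for COL1A2 and at least 9.89 for COL3A1 (adjusted p = 3.48e-09 and 3.28e-09 on the values as deposited, M and U arrays).

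COL1A1, the partner of COL1A2 in type I collagen, was at 13.85, 14.46 and 14.58 in Hs578T and at 5.50, 5.98 and 6.51 in BT-20. The difference was 8.04 ± 0.13 (SE, M and U arrays, adjusted p = 1.70e-08). The other COL1A1 probe sets did not all show BT-20 signal: of the 3 other sets with signal in Hs578T, 1 was at 6.06 to 6.78 in BT-20 and the others were at 2.59 to 4.09 and at 3.26 to 3.72. Presence of COL1A1 in BT-20 therefore depended on the probe set.

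Type V collagen helps set the width of fibrils. COL5A1 was at 12.37, 12.80 and 12.96 in Hs578T and at 10.27, 10.38 and 10.56 in BT-20. Its difference of 2.25 ± 0.14 (adjusted p = 1.09e-05) was larger than the spread within either line. The size depended on the probe set. The other COL5A1 probe sets were at 6.34 to 7.30 and at 6.68 to 7.56 in BT-20. Over all arrays they differed between the lines by 4.14 and 4.13. Its partner chains were under 5 on all BT-20 arrays. COL5A2 was at 12.16, 12.47 and 12.89 in Hs578T and at 2.85, 2.92 and 3.24 in BT-20, a difference of at least 7.34. COL5A3 was at 7.98, 8.71 and 8.96 in Hs578T and at 2.81, 3.05 and 3.24 in BT-20, a difference of at least 3.43. All the type V chains thus had signal in Hs578T, and COL5A1 alone had it in BT-20. COL27A1, a minor fibrillar chain of cartilage, was at 5.00, 5.68 and 6.17 in Hs578T and at 3.38, 3.94 and 4.71 in BT-20 (adjusted p = 0.00514). With values under 5 raised to 5 it differed by 0.63 and was no longer called (adjusted p = 0.207).

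**Figure D2:**
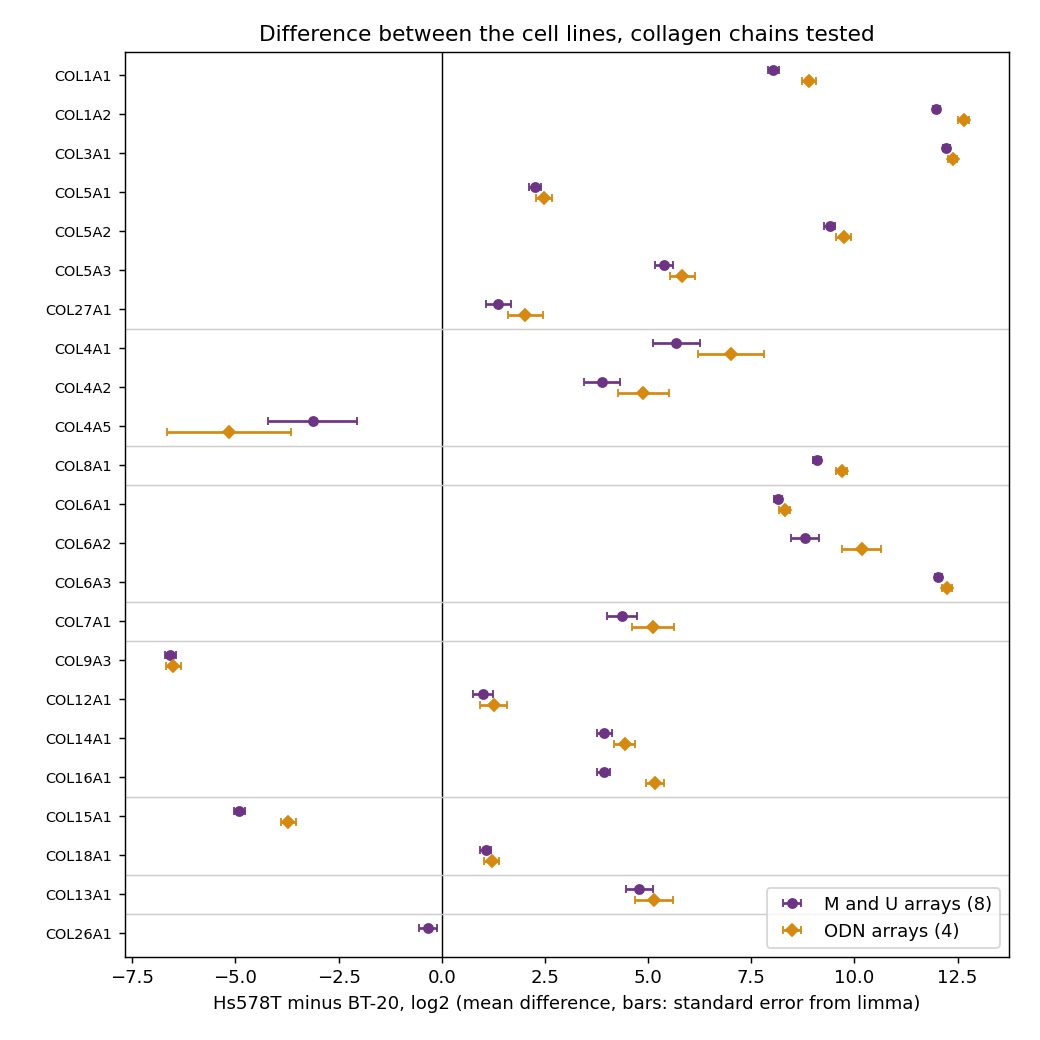
Difference between Hs578T and BT-20 (log2, with standard error) for each chain tested, from the 8 M and U arrays (purple circles) and from the 4 ODN arrays (orange diamonds), with collagen types divided by grey lines. Of the chains, 19 lie above 0 in both sets of arrays and COL4A5, COL9A3 and COL15A1 below it, and COL26A1 was tested in the M and U arrays only.

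The basement membrane chains went both ways. COL4A1 and COL4A2, which together form the common type IV collagen of nearly all basement membranes, were higher in Hs578T. COL4A1 was at 12.50, 13.05 and 13.21 in Hs578T and at 5.96, 6.23 and 8.39 in BT-20, a difference of 5.68 ± 0.57 (adjusted p = 0.00011). COL4A2 was at 12.22, 12.55 and 12.71 in Hs578T and at 7.57, 7.86 and 9.41 in BT-20, a difference of 3.88 ± 0.44 (adjusted p = 0.000199). The lines did not overlap for either chain, although BT-20 spread widely. COL4A5, a chain of the type IV collagen of kidney glomeruli whose loss causes Alport syndrome, was at 2.95, 3.29 and 6.99 in Hs578T and at 8.05, 8.18 and 8.47 in BT-20. Its difference of -3.12 ± 1.07 (adjusted p = 0.0335) was called lower in Hs578T. That call was lost in 8 of 18 alternatives. Of these, 6 left out an array (adjusted p = 0.0685 to 0.0877), either any M or U array of BT-20 or M or U of set 2 in Hs578T. The others were no filter (adjusted p = 0.121) and values under 5 raised to 5, which gave -2.16 (adjusted p = 0.0813). Within set 2 alone, where Hs578T was under 5, COL4A5 was lower in Hs578T by at least 3.17 (adjusted p = 1.53e-05 on the values as deposited), and within set 1 alone the difference was -1.15 (adjusted p = 0.00059). COL4A3, COL4A4 and COL4A6, the remaining type IV chains, were under 5 on all 12 arrays.

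The type IV genes lie in head-to-head pairs on the genome, COL4A1 with COL4A2, COL4A4 with COL4A3 and COL4A6 with COL4A5. The first pair had signal for both genes in both lines, the second for neither gene, and the third for COL4A5 only. The 126 bases between the starts of COL4A1 and COL4A2 (RefSeq starts, GRCh38.p14, chr13:110307158-110307283, COL4A2 strand) are shown because both genes were higher in Hs578T and both varied between the sets in BT-20. The same number of bases before the COL4A5 start (chrX:108439712-108439837, COL4A5 strand) is shown beside it. Capitals mark CCAAT and GGGCGG, searched with TATAAA on both strands.
COL4A1 and COL4A2: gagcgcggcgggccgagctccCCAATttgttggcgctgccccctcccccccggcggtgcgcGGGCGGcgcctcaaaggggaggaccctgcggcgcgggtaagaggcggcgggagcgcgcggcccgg
COL4A5: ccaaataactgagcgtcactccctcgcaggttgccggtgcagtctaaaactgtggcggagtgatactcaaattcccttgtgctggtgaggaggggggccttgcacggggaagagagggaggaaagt
The stretch between COL4A1 and COL4A2 held 1 CCAAT, 1 GGGCGG and no TATAAA, was 80.2% G or C and held 20 CG pairs. The COL4A5 stretch held none of these motifs, was 56.3% G or C and held 5 CG pairs. Over 35114 RefSeq windows of 126 bases before a start, 21.1% held CCAAT, 34.6% GGGCGG and 5.9% TATAAA, and the median was 60.3% G or C with 6 CG pairs. Such windows were at hand for 31 of the 43 chains. These matches describe the letters only.

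Among the network chains, COL8A1, a short-chain collagen of vessel walls and of the cornea, was at 11.61, 12.12 and 12.58 in Hs578T and at 2.69, 2.82 and 2.91 in BT-20. It was higher in Hs578T by at least 6.93 (adjusted p = 5.99e-09 on the values as deposited). COL8A2 and COL10A1 were under 5 on all arrays. Of the beaded-filament chains, COL6A3, the long chain of type VI collagen around cells, was at 14.12, 14.26 and 14.40 in Hs578T. In BT-20 it was at 2.13, 2.15 and 2.17. The difference was at least 9.19 (adjusted p = 3.28e-09 on the values as deposited). COL6A1 and COL6A2, neighbouring genes that code the other common type VI chains, went the same way. COL6A1 was at 12.86, 13.01 and 13.53 in Hs578T and at 4.53, 4.80 and 5.57 in BT-20. The difference was 8.16 ± 0.10 (adjusted p = 7.03e-09), and 7.94 with values under 5 raised to 5. COL6A2 was at 12.39, 12.71 and 13.27 in Hs578T and at 2.68, 3.50 and 4.25 in BT-20, a difference of at least 7.57. All 3 beaded-filament chains tested were thus higher in Hs578T (background 34.4% of genes higher). COL6A2 and COL6A3 were under 5 on all BT-20 arrays and passed the filter through Hs578T alone. COL6A6 reached 5 on 2 of 6 Hs578T arrays (5.85 in U of set 2 and 5.70 in the ODN2006 control) and stayed at 1.82 to 1.94 in BT-20, and COL6A5 was under 5 throughout. COL7A1, the chain of the fibrils that anchor epithelium to the dermis, was at 7.33, 8.27 and 9.10 in Hs578T. In BT-20 it was at 2.68, 3.73 and 4.12. The difference was at least 2.91 (adjusted p = 4.20e-05 on the values as deposited).

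The fibril-associated chains were mixed as well. COL9A3, a chain of type IX collagen on cartilage fibrils, was at 2.14, 2.16 and 2.41 in Hs578T and at 8.55, 8.73 and 9.15 in BT-20. It was lower in Hs578T by at least 3.79 (adjusted p = 4.52e-08 on the values as deposited). Its partners COL9A1 and COL9A2 were under 5 in both lines. COL14A1, which binds fibrils of tendon and skin, was at 6.66, 7.07 and 7.62 in Hs578T and at 2.74, 3.03 and 3.07 in BT-20. COL16A1, of small fibrils and microfibrils, was at 8.70, 9.14 and 9.98 in Hs578T and at 4.61, 4.88 and 5.39 in BT-20. Both were higher in Hs578T. COL14A1 was higher by at least 1.89 (adjusted p = 2.44e-06 on the values as deposited). COL16A1 was higher by 3.93 ± 0.16 (adjusted p = 1.20e-06), and by 3.81 with values under 5 raised to 5. COL12A1, a long chain that bridges fibrils, was at 10.76, 11.30 and 11.40 in Hs578T and at 9.80, 10.02 and 10.67 in BT-20. Its call (difference 1.00 ± 0.23, adjusted p = 0.00675) rested on the chosen probe set. Of the 3 COL12A1 probe sets with signal 2 were higher and 1 lower in Hs578T (-0.36 to 1.09), and the mean over all its probe sets gave 0.16 (adjusted p = 0.367). Of the 15 chains with at least 2 probe sets with signal, the other 14 had all of them on the same side.

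The multiplexin chains, whose tails release endostatin-like fragments, split between the lines. COL15A1 was at 2.74, 3.04 and 4.60 in Hs578T and at 7.78, 7.82 and 8.02 in BT-20. It was lower in Hs578T by at least 2.81 (adjusted p = 1.35e-07 on the values as deposited). COL18A1 was at 8.34, 8.70 and 8.85 in Hs578T and at 7.31, 7.53 and 7.67 in BT-20, higher in Hs578T by 1.07 ± 0.13 (adjusted p = 0.0003). Of the transmembrane chains, COL13A1, found at cell adhesions, was at 8.47, 8.80 and 8.85 in Hs578T and at 2.62, 3.84 and 5.17 in BT-20, a difference of 4.78 ± 0.33 (adjusted p = 1.70e-05) that was 3.78 with values under 5 raised to 5, while COL23A1 and COL25A1 were under 5 on all arrays. COL26A1 was at 4.48, 4.62 and 4.75 in Hs578T and at 4.61, 4.63 and 5.34 in BT-20 and was not called (-0.34 ± 0.21, adjusted p = 0.185).

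The genes that make and finish collagen differed between the lines in the same direction as most chains. Of 40 genes listed, 38 were measured and 31 tested in the M and U arrays. Of these, 26 were higher in Hs578T, 3 lower and 2 not called, against the backgrounds of 34.4% and 40.2%, and the median difference was 2.03. Among the hydroxylases of proline and lysine and their partners 9 of 10 tested were higher and 0 lower, among folding chaperones 5 of 6 and 0, among genes of propeptide removal 4 of 4 and among crosslinking oxidases 4 of 4. Export genes went both ways, with 3 higher and 3 lower of 6. The ODN arrays gave 27 higher and 3 lower of 31. Several of the higher genes, LOX and PCOLCE among them, were under 5 on all BT-20 arrays and passed the filter through Hs578T alone. Their direction was thus largely fixed by the filter, and the counts do not stand for the whole list.

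LOX, the oxidase that starts crosslinks between chains, was at 12.44, 12.57 and 13.03 in Hs578T and at 2.57, 2.66 and 3.02 in BT-20. Its relative LOXL1 was at 11.95, 12.16 and 12.34 in Hs578T and at 4.80, 5.28 and 5.37 in BT-20. Both were higher in Hs578T without overlap, with adjusted p = 7.03e-09 for LOX and 5.38e-08 for LOXL1. P4HA2, a subunit of prolyl 4-hydroxylase, differed by 5.37 ± 0.11 (adjusted p = 4.66e-08), and PLOD1, a lysyl hydroxylase, by 2.22 ± 0.08 (adjusted p = 8.03e-07). ADAMTS2, which removes the amino-terminal propeptide, was at 9.67 to 10.24 in Hs578T and at 1.97 to 2.74 in BT-20. PCOLCE, which enhances removal of the carboxy-terminal propeptide, was at 11.03 to 11.86 in Hs578T and at 3.58 to 4.86 in BT-20. CREB3L1, a factor that activates secretion and type I collagen genes, was at 10.33 to 10.72 in Hs578T and at 2.58 to 2.97 in BT-20, and FKBP7, a prolyl isomerase of the endoplasmic reticulum, at 8.42 to 9.28 in Hs578T and 2.77 to 3.47 in BT-20. In each of these genes every Hs578T array was above every BT-20 array. They were named for the smallest p of their list, so such a gap follows from the choice.

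**Figure D3:**
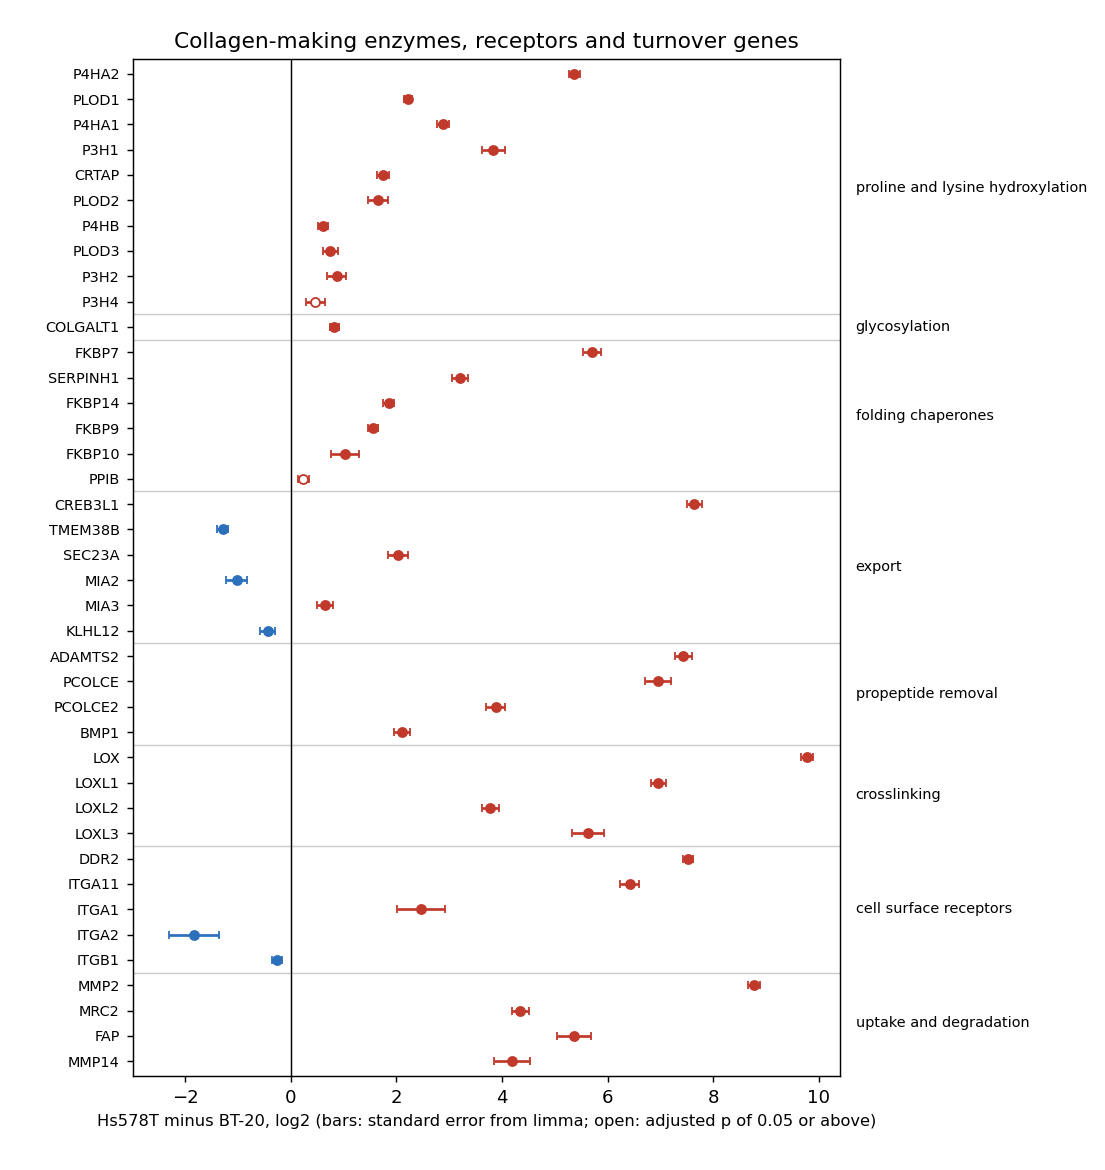
Difference between Hs578T and BT-20 in the M and U arrays (log2, with standard error) for the genes tested of the lists for collagen making, receptors and turnover, grouped by role, filled where the adjusted p was under 0.05. In the first list 26 of 31 genes were higher in Hs578T, and KLHL12, MIA2 and TMEM38B of the export genes were lower.

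Of 18 receptor and turnover genes 17 were measured and 9 tested, of which 7 were higher in Hs578T (background 34.4%) and 2 lower (40.2%), with a median difference of 4.35. Most of the higher genes were under 5 on all BT-20 arrays and passed the filter through Hs578T alone. Their direction was thus largely fixed by the filter, and the counts do not stand for the whole list. DDR2, a receptor kinase for fibrillar collagen, was at 10.76 to 11.39 in Hs578T and at 2.92 to 3.40 in BT-20. ITGA11, the integrin subunit that binds fibrillar collagen on fibroblasts, was at 9.69 to 10.93 in Hs578T and at 3.80 to 4.09 in BT-20. MMP2, a gelatinase that degrades type IV collagen, was at 11.03 to 11.43 in Hs578T and at 2.37 to 2.49 in BT-20. Each was under 5 on all BT-20 arrays. ITGA2, the collagen-binding integrin subunit of epithelium and platelets, was at 6.60 to 8.92 in Hs578T and at 9.18 to 10.14 in BT-20 and was called lower in Hs578T (-1.84 ± 0.48, adjusted p = 0.0107), as was the shared subunit ITGB1 (-0.26 ± 0.09, adjusted p = 0.0366), which was not called in the ODN arrays (-0.03). The collagenases MMP1, MMP8 and MMP13 were under 5 on all arrays.

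The marker genes split the lines too. All 8 mesenchymal markers (VIM and others) were at 5 or above on every Hs578T array and 1 of 8, VIM, on every BT-20 array, with summed levels of 86.6 to 89.5 in Hs578T and 28.1 to 30.7 in BT-20. Of 8 epithelial markers 2, KRT8 and KRT18, were at 5 or above on every Hs578T array and all 8 on every BT-20 array, with sums of 34.6 to 36.1 in Hs578T and 101.3 to 103.1 in BT-20. EPCAM, a defining epithelial marker, was under 5 in Hs578T. The 4 leukocyte markers measured were under 5 on all arrays, with sums of 9.23 to 9.54 in Hs578T and 9.34 to 9.46 in BT-20. Of 5 endothelial markers PECAM1 reached 4.08 to 6.69 in Hs578T and CDH5 7.29 to 9.48 in BT-20, and the other 3 were under 5, with sums of 15.9 to 18.6 in Hs578T and 19.0 to 21.4 in BT-20. These markers move with the collagen differences, and their part in them was not tested.

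Methylation of the oligonucleotide left no chain called. M and U arrays were compared to ask whether the methylated DNA acts on the cells differently from the unmethylated DNA. By limma 0 of 23 chains and 0 of 10410 genes passed in either direction (background 0%), whether the lines were taken singly, together or as the difference between them. At an unadjusted p under 0.05 there were 680 genes and 1 chain in Hs578T, 174 genes and 3 chains in BT-20, 543 genes and 1 chain over both lines, and 258 genes and 0 chains for the difference. The median over chains was -0.02 in Hs578T and 0.04 in BT-20.

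COL1A1 had the smallest p over both lines. In Hs578T it was at 14.58 and 14.38 in M (set 1, set 2) and at 14.30 and 13.85 in U. In BT-20 it was at 6.49 and 6.51 in M and at 6.05 and 5.90 in U. M was above U in each of the 4 pairs of one line and set, by 0.47 on average (95% interval 0.16 to 0.77, limma adjusted p = 0.937). This order depended on the probe set. On another COL1A1 probe set, Hs578T was at 14.42 and 14.25 in M and at 14.43 and 14.27 in U. COL8A1 in Hs578T was at 11.87 and 11.61 in M and at 12.07 and 12.17 in U (-0.38, 95% interval -0.71 to -0.05, adjusted p = 0.706). COL16A1 in BT-20 was at 5.23 and 5.39 in M and at 4.66 and 4.89 in U (0.53, 95% interval 0.01 to 1.06, adjusted p = 0.9998). These values lie apart within 1 chain but do not pass over all genes.

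ODN2006 was compared with its control to ask what the CpG order adds, with 1 array of each per line, whose spread was taken from the M and U groups. Of 24 chains 0 passed, and 1 of 10543 genes did (0.00948% higher, 0% lower). At an unadjusted p under 0.05 there were 490 genes and 2 chains, COL6A1 and COL15A1. COL6A1 was at 13.53 in Hs578T and 5.57 in BT-20 with ODN2006, against 13.36 in Hs578T and 4.69 in BT-20 with the control (0.52, 95% interval 0.19 to 0.86, adjusted p = 0.935). COL15A1 was at 4.60 in Hs578T and 8.02 in BT-20 with ODN2006, against 3.83 in Hs578T and 7.84 in BT-20 with the control (0.48, 95% interval 0.06 to 0.90, adjusted p = 0.975). Both were higher with ODN2006 in each line, by differences that did not pass. COL15A1 was under 5 in Hs578T with either ODN, and COL6A1 was under 5 in BT-20 with the control.

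The ODN arrays were also set against the M and U arrays of the same array batch, 2 against 2 in each line, to compare kinds of oligonucleotide that differ in strandedness, sequence and chemistry. In Hs578T 3 of 23 chains were called higher (background 3.87% of 10375 genes) and 0 lower (5.16%). Of the 23 estimates 21 were above 0, with a median of 0.42 against -0.06 over all genes. The share of all genes above 0 was not counted, and estimates from the same arrays are not independent of each other. In BT-20 0 chains and 0 genes passed (0% higher, 0% lower), with 534 genes and 1 chain at an unadjusted p under 0.05. The difference between the lines passed for 0 chains, against 0.202% of genes higher and 0.0675% lower. Since no set number is given for the ODN arrays, the kind of oligonucleotide and the culture cannot be told apart.

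COL5A3 was at 8.96 and 8.78 in the Hs578T ODN arrays and at 7.98 and 8.25 in M and U of set 2 (0.76 ± 0.14, adjusted p = 0.0309). COL5A1 was at 12.94 and 12.96 in the ODN arrays and at 12.36 and 12.53 in M and U of set 2 (0.50 ± 0.12, adjusted p = 0.0475). Both were above set 2 on each ODN array. In set 1 of Hs578T, however, M and U were at 8.85 and 8.64 for COL5A3 and at 12.89 and 12.71 for COL5A1, close to the ODN arrays. COL15A1, the third chain called, was at 4.60 and 3.83 in the ODN arrays and at 3.22 and 2.86 in set 2 (1.17 ± 0.26, adjusted p = 0.0409), all under 5, so that raising values to 5 left no difference. Leaving out single arrays gave 0 to 4 chains higher, with 0 chains without the Hs578T arrays of M of set 2 or ODN2006, or without any BT-20 array of this comparison.

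**Figure D4:**
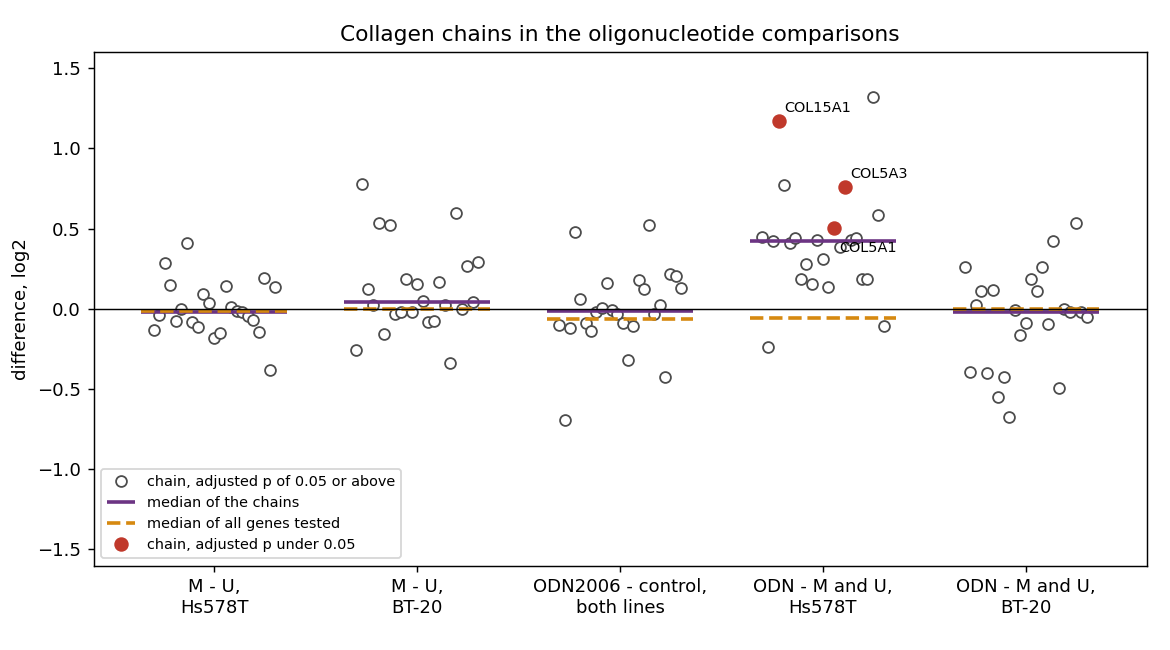
Log2 difference of each collagen chain tested (points) in 5 oligonucleotide comparisons, with the median of the chains (solid line) and of all genes tested (dashed line), filled where the adjusted p was under 0.05. Only the ODN arrays against M and U of set 2 in Hs578T hold filled points (COL5A1, COL5A3 and COL15A1), with a chain median of 0.42.

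COL4A5 in Hs578T and COL4A1 and COL4A2 in BT-20 differed between the sets. This was seen in the values and then tested on them with the 8 M and U arrays, M and U joined within a set. In Hs578T COL4A5 was at 3.18 and 2.95 (M, U) in set 2 and at 6.99 and 6.94 in set 1, and the ODN arrays were at 3.00 and 3.40. Set 2 was under 5, so the difference, set 2 minus set 1, is given with values under 5 raised to 5 as -1.97 (limma adjusted p = 0.00132), a bound on its size, and was -3.90 ± 0.12 on the values as deposited (adjusted p = 1.64e-05). COL4A5 was the only one of 23 chains called there (0 higher, against 0.682% of genes, and 1 lower, against 2.06%). In BT-20 COL4A5 stayed at 8.05 to 8.47 on all 6 arrays. Its second probe set was near 2.4 throughout and could not repeat the measurement.

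In BT-20 COL4A1 was at 6.19 and 6.26 in set 2 and at 8.39 and 8.01 in set 1, with 5.96 and 6.16 in the ODN arrays. COL4A2 was at 7.81 and 7.83 in set 2 and at 9.41 and 9.29 in set 1, with 7.57 and 7.89 in the ODN arrays. The ODN arrays, which the test did not use, lay with set 2 for both chains. The differences were -1.98 ± 0.16 for COL4A1 (adjusted p = 0.00273) and -1.53 ± 0.11 for COL4A2 (adjusted p = 0.00245). The second probe set of COL4A1 was at 2.70 and 3.97 in set 2 and at 6.27 and 5.64 in set 1. In BT-20 0 chains were called higher (0.663% of genes) and 3 lower (1.83%), the third being COL26A1 (-0.69 ± 0.10, adjusted p = 0.0283), which was at 4.63 and 4.63 in set 2 and at 5.30 and 5.34 in set 1 and lost its call in 6 of 11 alternatives.

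The lines differed in these set effects. Set 2 minus set 1, Hs578T minus BT-20, was -2.02 for COL4A5 with values under 5 raised to 5 (adjusted p = 0.00299), again a bound on its size, and -3.95 ± 0.17 as deposited (adjusted p = 0.000159). It was 1.19 ± 0.16 for COL4A2 (adjusted p = 0.0242) and 1.45 ± 0.22 for COL4A1 (adjusted p = 0.0367). That made 2 chains higher (background 0.548%) and 1 lower (0.73%) of 23. The call of COL4A1 was lost in 10 of 14 alternatives and that of COL4A2 in 6 of 14. The calls of COL4A1 and COL4A2 were both lost without M or U of set 1 in Hs578T, or without M of set 1, M of set 2 or U of set 2 in BT-20, and that of COL4A1 without U of set 2 in Hs578T. M and U of a set deviated together within a line (r = 0.599 in Hs578T and 0.595 in BT-20), so they may not be independent and each line has in effect 1 set against 1, and the p-values measure only the spread between these arrays. Set and array batch cannot be told apart. Of the chains called lower or higher between the lines, COL9A3 and COL15A1 were at 2.14 to 2.80 in Hs578T set 1, and COL1A2, COL3A1 and COL6A3 at 2.17 to 2.83 in BT-20 set 1. The summed epithelial markers of Hs578T were 34.8 to 35.5 in set 2 and 34.6 to 35.0 in set 1, and the summed mesenchymal markers of BT-20 were 30.4 to 30.7 in set 2 and 28.8 to 29.9 in set 1. The summed endothelial markers differed between the sets in opposite directions in the lines. In Hs578T they were at 15.9 to 17.5 in set 2 and 17.6 to 17.8 in set 1. In BT-20 they were at 21.0 to 21.1 in set 2 and 19.0 to 20.2 in set 1. Of these markers, PECAM1 in Hs578T was at 4.08 and 5.65 (M, U) in set 2 and at 6.07 and 6.04 in set 1. CDH5 in BT-20 was at 9.22 and 9.37 in set 2 and at 7.29 and 8.48 in set 1. VWF, KDR and TEK were under 5 on all arrays. The part of these markers in the set differences was not tested.

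**Figure D5:**
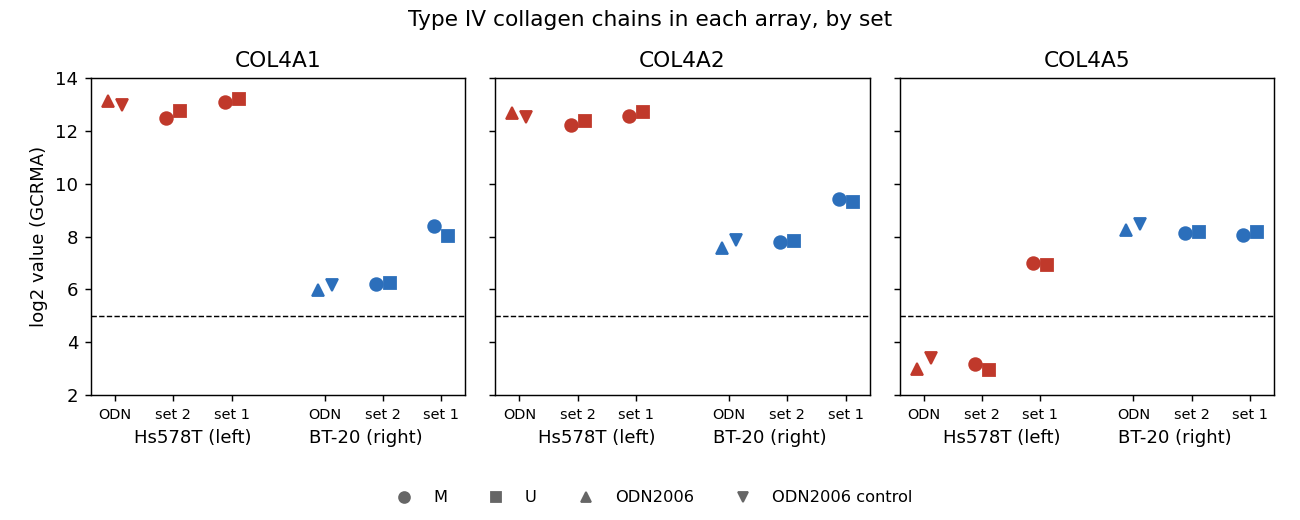
Log2 values of COL4A1, COL4A2 and COL4A5 on each array, by ODN arrays, set 2 and set 1, Hs578T (red, left in each panel) and BT-20 (blue, right), dashed line at 5, with the symbol giving the oligonucleotide. COL4A5 in Hs578T is at 6.94 to 6.99 in set 1 and at 2.95 to 3.40 elsewhere, and COL4A1 and COL4A2 in BT-20 are higher in set 1 than on the other arrays.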

How the data were processed

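RNA of 12 cell cultures was measured on Affymetrix HG-U133 Plus 2.0 arrays. Per the labels, the submitters' processing notes name GCRMA and R 2.4, and the deposited log2 values cover 54675 probe sets; whether all arrays were normalized together is not given in the sources used here. GCRMA lowers weak signals toward a floor, so differences against dim values are uncertain. Of the probe sets, 41097 were annotated to 1 gene, 1801 to several and 11777 to none in the table used, and 41043 probe sets with 1 gene carry a current RefSeq symbol. The gene from which the M and U sequence was taken is not reported here. Groups were compared by linear models in limma (version 3.58.1, R 4.3.3) with eBayes, tested on simulated data, for genes at 5 or above in at least 2 arrays, with Benjamini-Hochberg adjustment over all of them and a threshold of 0.05. Where a line was under 5 on all arrays, values under 5 were raised to 5 and the difference given as a bound. Members, gene lists and tests were chosen with earlier results of these data known. Chains were named by the rule that every chain may be named, with values for those called at a size of 1 or more or present throughout, and otherwise those with the smallest p: up to 8 per list and 3 per treatment comparison. The set comparison and the test of the kind of oligonucleotide between lines were added after seeing the data. Set numbers mark an array batch, and M and U of a set deviated together within a line (r = 0.599 and 0.595 over 10410 genes, 0.0984 to 0.131 between lines), so set was also used as a block. Alternatives were no filter, the mean of all probe sets, housekeeping centring, quantile normalization, values under 5 raised to 5, eBayes with trend, the block, single sets and leaving out each array. The number of arrays limits the precision. Replicates are called biological in the labels; for a group with 1 array the spread of the M and U groups was assumed.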

Additional observations from a re-analysis of the deposited data

Results flagged for a closer look

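Set 2 minus set 1 differed between the cell lines for 3 type IV collagen chains by a test of that difference. COL4A5 differed by -3.95 (adjusted p = 0.000159) on the values as deposited and by -2.02 (adjusted p = 0.00299) with values under 5 raised to 5, since Hs578T was under 5 in set 2, COL4A2 by 1.19 (adjusted p = 0.0242) and COL4A1 by 1.45 (adjusted p = 0.0367), on the log2 scale, Hs578T minus BT-20. The comparison was chosen after these chains were seen to vary, and M and U of a set may not be independent. The call of COL4A1 was lost in 10 of 14 alternatives and that of COL4A2 in 6 of 14, while COL4A5 kept its call.

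ITGA1, the alpha subunit of a collagen-binding integrin, differed between the lines in the ODN arrays against M and U of set 2, by 1.64 (adjusted p = 0.0473). In Hs578T it was at 6.46 and 6.55 in the ODN arrays, against 5.08 and 4.66 in M and U of set 2, and at 6.83 and 6.13 in M and U of set 1. In BT-20 it was at 3.18 to 3.22 on all arrays. These values are under 5, so a change in BT-20 could not be seen and the test largely repeats the Hs578T difference. In Hs578T, U of set 2 was itself under 5. The background was 0.202% of genes called higher.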

How the results depend on the processing

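The counts of chains called between Hs578T and BT-20 in the M and U arrays were 16 to 20 higher and 2 to 4 lower over 18 alternatives, and a replicate block of set, fixed or random, gave 19 and 3. The block changed no count of chains in the comparisons of M with U or of ODN2006 with its control. Of the recounts, 359 stayed within 1.5 times and 25 did not. Without the filter 5 chains were lower between the lines in the ODN arrays. With values under 5 raised to 5, 1 chain was lower for M against U in Hs578T, over both lines and for the difference between lines, 1 higher for the ODN arrays against M and U in Hs578T and 1 for that difference between lines. The mean of all probe sets gave 5 higher for the ODN arrays in Hs578T and 2 lower for set 2 in Hs578T, and eBayes with trend gave 5 higher for the ODN arrays in Hs578T. For set 2 against set 1 as the difference between lines, 1 chain in place of 2 was higher without the filter, with the mean of probe sets, with housekeeping centring and with values raised to 5. Leaving out single arrays gave 0 to 4 chains higher for the ODN arrays in Hs578T and 0 to 3 for the difference between lines in the set comparison. No chain reversed its direction between the lines in the M and U arrays. No chain called in the set comparisons or for the ODN arrays against M and U reversed either. Directions of single chains were not followed in the other comparisons. The causes were not tested. With 2 arrays per group, small changes of dim chains could not be resolved.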
